A study of Homo sapiens with 16 samples.

Results

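The distal ZBTB7A regions common to 3 peak lists are stretches of the genome, away from the protein-coding starts of the authors' annotation, where ZBTB7A was found by chromatin immunoprecipitation with sequencing (ChIP-seq) in K562 cells and in both of the HUDEP-2 lines examined, and where no BCL11A region was listed. The K562 list held 17331 unique regions, of which 16332 lay off chromosome 11 and 7013 of those had their midpoint more than 5 kb from every protein-coding transcript start. Of these distal regions 3807 (54.3%) were overlapped by at least 1 bp in the wild-type HUDEP-2 list, 2824 (40.3%) in the 195C>G HUDEP-2 list and 2670 (38.1%) in both. A BCL11A region overlapped 854 of the 2670 (32.0%), and the other 1816 are the common regions described here, 25.9% of the distal K562 regions. Overlap of the lists chose them, so their presence and their place in each list are given as descriptions, with no test.

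The study asked how natural variants of the fetal globin promoters affect binding of the repressors BCL11A and ZBTB7A. ZBTB7A was measured, with antibodies from 2 makers named for every library, in K562, an erythroleukaemia line (4 ChIP libraries), and in HUDEP-2, an immortalised human erythroid progenitor line. The HUDEP-2 cells used for ZBTB7A lack the Gγ-globin gene, and carry either the unchanged promoter (WT, 1 library) or the 195C>G change (1 library). BCL11A was measured through its V5 tag in HUDEP-2 with an introduced BCL11A-ER-V5 fusion that tamoxifen switches on, treated with 4-hydroxytamoxifen at 1e-07 M for 24 h (2 libraries), so that list reports the tagged protein and not the cells' own. Each ChIP library has a control, which the titles call input and the antibody field calls IgG. The K562 and BCL11A lists pool their libraries, and nothing says whether each HUDEP-2 line is 1 clone. No spread between replicates can therefore be given for any value below, no read counts accompany the lists, and the depth is unknown. Expression was not measured, so the cell type could not be checked against its marker transcripts.

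ZBTB7A, also called LRF, is a zinc-finger repressor with a BTB domain through which it recruits corepressor complexes. It is required for red cell maturation, and together with BCL11A it silences the γ-globin genes of the fetus in adult erythroid cells. Distal sites of such a factor often lie in enhancers, which can act on a promoter far along the chromosome, so the nearest gene is a label of position and not a shown target.

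At 104 of the 1816 common regions (5.73%) the region overlapped a 300-base RefSeq window of a transcript start, 250 bases before to 50 after it, and in 83 of them the transcript was a long noncoding RNA (lncRNA). In 26 it was protein-coding, at 24 windows of 23 genes, since RefSeq holds starts that the authors' annotation used for the distance limit does not. The 5 lncRNA windows below lay wholly inside the best-ranked common regions that held such a window, with chromosomes 8 and 18 left out of the choice. They are shown because they give the sequence under the binding itself: the WT summit fell inside each window. They were chosen after their values were seen and come from RefSeq on GRCh38.p14, all on the plus strand. Capitals mark, on either strand, GACCC (part of the C-rich motif known for ZBTB7A), CACCC (the core bound by erythroid Krüppel-like factors) and GATAAG (the motif of GATA factors).
LOC124901407: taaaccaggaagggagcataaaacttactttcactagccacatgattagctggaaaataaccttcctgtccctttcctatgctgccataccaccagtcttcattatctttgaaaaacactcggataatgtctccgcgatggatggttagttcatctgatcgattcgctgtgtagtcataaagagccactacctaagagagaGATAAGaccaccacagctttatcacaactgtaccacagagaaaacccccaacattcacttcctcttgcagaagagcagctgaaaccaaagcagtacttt
SNHG16: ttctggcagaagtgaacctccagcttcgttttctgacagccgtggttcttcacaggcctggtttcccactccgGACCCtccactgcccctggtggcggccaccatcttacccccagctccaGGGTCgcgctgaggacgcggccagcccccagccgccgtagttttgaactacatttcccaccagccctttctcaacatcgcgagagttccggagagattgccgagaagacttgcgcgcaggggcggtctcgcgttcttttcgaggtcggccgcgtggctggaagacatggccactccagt
LOC112268412: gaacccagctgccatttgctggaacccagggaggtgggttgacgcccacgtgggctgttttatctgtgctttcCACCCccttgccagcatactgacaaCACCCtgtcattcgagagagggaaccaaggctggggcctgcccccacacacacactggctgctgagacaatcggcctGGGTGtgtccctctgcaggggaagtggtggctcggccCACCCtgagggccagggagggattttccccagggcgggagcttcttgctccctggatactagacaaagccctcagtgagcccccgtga
SNHG33: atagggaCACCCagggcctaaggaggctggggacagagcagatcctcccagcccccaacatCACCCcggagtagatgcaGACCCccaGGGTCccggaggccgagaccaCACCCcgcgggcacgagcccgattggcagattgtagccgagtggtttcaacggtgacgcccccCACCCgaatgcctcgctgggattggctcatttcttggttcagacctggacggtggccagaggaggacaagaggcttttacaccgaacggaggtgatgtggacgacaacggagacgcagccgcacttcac
LOC401261: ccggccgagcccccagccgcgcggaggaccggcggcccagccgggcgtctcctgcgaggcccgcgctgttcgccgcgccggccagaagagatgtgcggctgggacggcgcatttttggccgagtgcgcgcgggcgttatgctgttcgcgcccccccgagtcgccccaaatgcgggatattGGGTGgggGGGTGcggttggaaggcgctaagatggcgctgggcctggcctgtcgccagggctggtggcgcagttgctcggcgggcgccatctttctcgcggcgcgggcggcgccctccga

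The window of LOC124901407 (chr6:135323134-135323433) lay in the common region whose nearest protein-coding start was that of MYB, and held 1 GATAAG but neither GACCC nor CACCC. That region had K562, WT and 195C>G ranks of 91, 74 and 8, and its WT summit was 10 bp from the noncoding start. The window of the small nucleolar RNA host gene SNHG16 (chr17:76557514-76557813) held GACCC at 2 places, and its region ranked 94, 252 and 355 in K562, WT and 195C>G. Near KLF11, which encodes a Krüppel-like factor, the window of LOC112268412 (chr2:10029062-10029361) held 4 CACCC and no GACCC, and its region ranked 670, 169 and 188. The window of SNHG33 (chr3:183447358-183447657) held both, with 2 GACCC and 4 CACCC, and its region ranked 596, 230 and 325. The window of LOC401261 (chr6:42783246-42783545) held 2 CACCC, and its region ranked 2035, 406 and 675. Strong ranks thus went with different letters in these 5 windows, and a match to a motif is a description of the sequence, not a shown site.

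Over all 88 lncRNA windows overlapped by a common region, 59.1% (95% interval 48.1 to 69.5) held GACCC and 73.9% (63.4 to 82.7) held CACCC. In the 192 distal lncRNA windows overlapped only by another distal K562 region these shares were 63.0% and 70.3%, within the intervals of the common regions. In 8565 distal lncRNA windows that no ZBTB7A region touched they were 34.3% and 48.8%, and in the RefSeq windows off chromosome 11, 33223 in number with 32914 different sequences, they were 47.5% and 59.9%. Motifs and letters were counted over whole windows, which a region may overlap only in part, as at LINC01778 with 81 of 300 bases. Base composition moved with these shares, and its part in them was not tested. G and C made up 60.6% of the letters in windows overlapped by common regions and 63.2% in those overlapped by other distal regions. They made up 46.9% in untouched lncRNA windows and 57.6% in all windows. GATAAG was found in 9 of 88 windows (10.2%, interval 4.78 to 18.5), against 9 of 192 (4.69%, interval 2.17 to 8.71) under other distal regions, and those intervals overlap. In untouched lncRNA windows GATAAG stood at 9.33% and in all windows at 6.35%, both within the interval of the common regions. CAGCTG, an E-box of the kind bound by bHLH factors, stood in 33.0% of windows under common regions (23.3 to 43.8) and in 48 of the 192 under other distal regions, whose upper bound was 31.7%, so these intervals overlap as well. Its share was 17.5% in untouched lncRNA windows and 17.9% in all windows. CCGGAAG, the motif of ETS factors, was found under 9.09% of common regions' windows (4.01 to 17.1) and 17.7% of those of other distal regions (12.6 to 23.9). CAGATG was found under 7.95% (3.26 to 15.7) and 14.6% (9.91 to 20.4), and in both cases the intervals overlap. In all windows CCGGAAG stood at 10.2% and CAGATG at 14.7%, both within the intervals of the common regions. In untouched lncRNA windows they stood at 2.90% and 21.9%, both outside them. GATAAG was among the letters marked above, and the other motifs here were picked from a longer set after their values were seen. Here and below, intervals are exact Clopper-Pearson intervals, they cover counting error only, and regions are not replicates of a condition.

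The common regions stood early beside the distal regions of each list taken as a whole, but not beside every group of them. The K562 list holds no value per region and was ranked by its order, and whether that order follows strength is not known, so a K562 rank below is a place in the list and not a measured strength. In K562 their median place was 39.6% of the way down the list, against 56.9% for the other distal K562 regions. In WT the strongest region overlapping each had a median rank percentile of 21.6, against 55.6 over all 17589 distal WT regions, and a median signal of 42.9 (range 15.0 to 380.6) against 23.7. In 195C>G the median rank percentile was 34.2 against 51.5 over distal 195C>G regions, with a median signal of 49.1 against 39.4. Both of these HUDEP-2 comparisons include regions that no K562 region overlaps. For the other distal K562 regions overlapped in each list, the median was 34.7 in WT (1991 regions) and 24.0 in 195C>G (1008 regions). Beside those, the common regions stood earlier in WT and later in 195C>G. Signals are the peak caller's and were compared only within their own list. The 854 distal regions that BCL11A also overlapped are among those other regions and stood earlier than the common ones in every list. Their median place was 30.8% down the K562 list, 10.2% down the WT list and 17.4% down the 195C>G list.

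Down the K562 order, the share of distal regions that were common regions fell from 250 of 647 (38.6%, interval 34.9 to 42.5) in the first decile to 106 of 653 (16.2%) in the last. Regions absent from both HUDEP-2 lists went the other way, from 22.1% in the first decile to 51.5% in the last. Regions shared with BCL11A made up 30.0% of the first decile and 8.73% of the last. Among the first 100 distal K562 regions 35 were common regions and 40 were shared with BCL11A. Of the 100 strongest distal WT regions 34 overlapped a common region, where 2143 of all 36435 WT regions, promoter ones included, did. All of these values come from the lists the rule used.

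**Figure D1:**
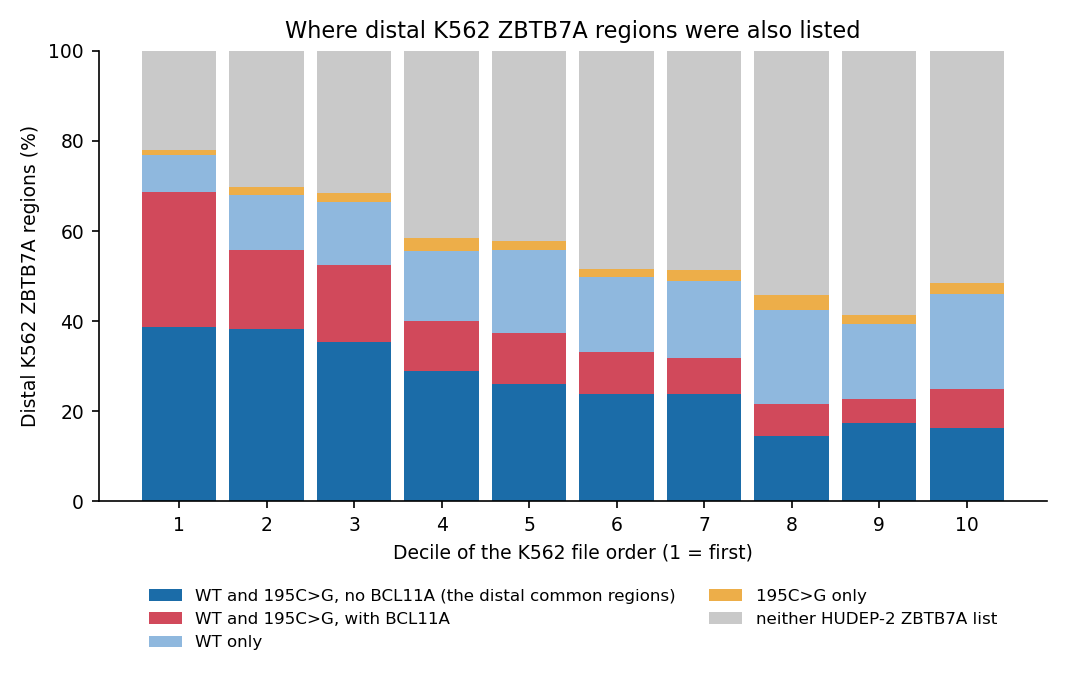
Share (%, vertical axis) of distal K562 ZBTB7A regions in each decile of the K562 order (horizontal axis) that fall in each class of overlap with the HUDEP-2 and BCL11A lists. The class of common regions goes from 38.6% in the first decile to 16.2% in the last, while regions in neither HUDEP-2 list go from 22.1% to 51.5%.

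Among themselves the 1816 regions ranked more alike between the HUDEP-2 lines than between K562 and either line. The Spearman correlation was 0.67 between WT and 195C>G, 0.35 between K562 and WT and 0.32 between K562 and 195C>G (n = 1816 regions, given as a description). The HUDEP-2 lists share a parent line and come from 1 library each, while K562 is another line with 4 pooled libraries, and the part of each in these correlations was not tested. In the first 10% of all 3 lists (by order in K562 and by signal in the others) stood 102 of the regions, 743 stood in the first 50% of all 3, and 126 in the last 50% of all 3. The rule itself limits how far positions could differ, since both HUDEP-2 regions had to overlap the same K562 region, a median of 330 bp wide. The WT and 195C>G summits lay a median of 34 bp apart, and within 100 bp of each other in 1587 regions (87.4%). The K562 region held the WT summit in 1646 cases (90.6%), and its midpoint was a median of 36 bp from it. In the 854 distal regions shared with BCL11A these medians were similar, 31.5 bp between summits and 41 bp from midpoint to WT summit.

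**Figure D2:**
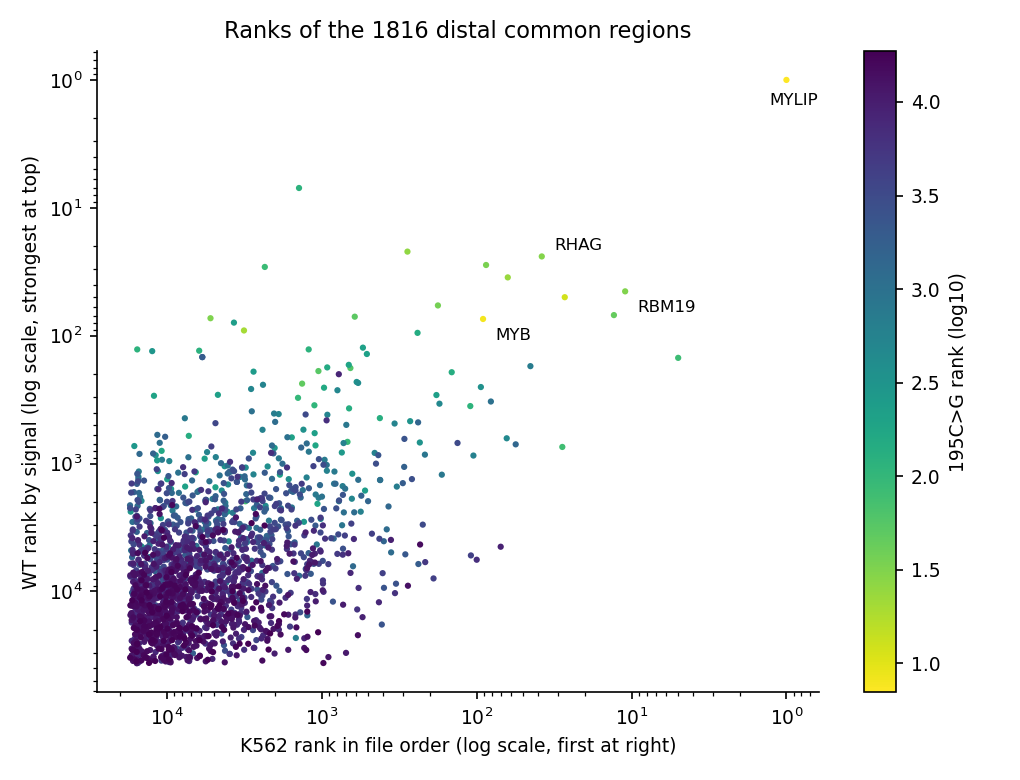
Rank of each of the 1816 common regions in the K562 order (horizontal axis, log scale) and by WT signal (vertical axis, log scale), with the 195C>G rank as colour on a log10 scale. MYLIP stands apart at rank 1 in both, with MYB, RHAG and RBM19 among the next by combined rank.

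The region of best combined rank lay 97624 bp upstream of MYLIP, which encodes a ubiquitin ligase that degrades the LDL receptor (chr6:16031172-16031751, hg38). It was rank 1 in K562 as well as in WT, there with a signal of 380.6, and rank 7 in 195C>G with a signal of 305.5, and the nearest BCL11A midpoint was 206922 bp away. The next, in intron 16 of 24 of RBM19, a gene of ribosomal RNA processing (chr12:113932666-113933874), ranked 11, 45 and 31 in K562, WT and 195C>G. A region 9489 bp upstream of RHAG, which encodes the Rh-associated glycoprotein of the red cell membrane (chr6:49646129-49646597), ranked 38, 24 and 30, with signals of 246.3 in WT and 251.1 in 195C>G. All 3 regions were thus near the top of every ZBTB7A list, at very different distances from a start.

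The region nearest to MYB lay 142066 bp downstream of its start, in intron 23 of 27 of the neighbouring gene AHI1 (chr6:135323114-135323648). MYB encodes a transcription factor of erythroid progenitors whose level bears on fetal haemoglobin. This region was rank 91 in K562 and rank 74 in WT (signal 203.1), and rank 8 in 195C>G (signal 301.0). A further common region, named after its values were seen, stood close by in intron 24 of AHI1 (chr6:135321301-135321643), at ranks 3047, 3895 and 2178. Both were absent from the BCL11A list, whose nearest region had its midpoint 80910 bp from the weaker one.

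Of the other regions in the 12 best, 6 lay outside every protein-coding transcript. They were found 21711 bp upstream of DRAM1 (chr12:101855316-101855916), 156816 bp upstream of XPO1, the nuclear export receptor (chr2:61694861-61695336), and 36867 bp downstream of TCF24 (chr8:66925462-66925983). The rest of these 6 lay 20908 bp downstream of MGAT1, an enzyme of N-glycan synthesis (chr5:180781892-180782388), 157491 bp downstream of RYBP, a Polycomb subunit (chr3:72288895-72289368), and 25167 bp upstream of ABT1 (chr6:26571517-26572035). The worst rank that any of these 6 had was 280, for RYBP in K562, whose WT and 195C>G ranks were 22 and 26. One more lay in intron 5 of 6 of ZMAT4 (chr8:40599503-40600063), at K562, WT and 195C>G ranks of 27, 50 and 12.

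Some regions stood high in the HUDEP-2 lists and lower in K562 (chosen after their values were seen). A region 67401 bp upstream of SPOPL (chr2:138434202-138434555) was rank 7 in WT (signal 298.0) and rank 116 in 195C>G, against 1404 in K562. A region 76753 bp downstream of the MTSS1 start (chr8:124651532-124651976) was rank 73 in WT and 32 in 195C>G, against 5236 in K562. At the extreme, 7 regions were in the last decile of the K562 order and in the first decile of both HUDEP-2 lists, among them one 186798 bp upstream of JARID2 (chr6:15058932-15059421; ranks 17323, 2119 and 1357). All 7 are exactly 490 bp wide, the most common width in the K562 list, as are 75 of the 106 common regions in the last K562 decile and 0 of the 250 in the first. Of the 7, 3 overlap a narrower common region with an earlier K562 rank and the same HUDEP-2 values, which for JARID2 is chr6:15058894-15059055 at rank 9466. Their late K562 places thus cannot be told apart from their width. In the opposite direction, 10 regions were in the first decile of K562 and the weaker 50% of both HUDEP-2 lists. One of them lay 63383 bp downstream of the start of CD2, a lymphocyte surface gene (chr1:116817643-116817983), at ranks 977, 36249 and 16140, the WT signal being 15.0.

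Most of the regions lay outside genes. The midpoint was outside every protein-coding transcript in 1100 (60.6%) and inside one in 716 (39.4%, interval 37.2 to 41.7), against 40.8% of the other 5197 distal K562 regions. Introns held 650 (the first intron of the longest transcript held 11.1% of all the regions), coding exons 14, 3′ UTR exons 49 and 5′ UTR exons 3. The 3′ UTR share was 2.70% (2.00 to 3.55) against 1.58% (1.26 to 1.95) of other distal regions, and the coding exon share 0.771% (0.422 to 1.29) against 2.10% (1.73 to 2.52). Neither pair of intervals overlaps, but both were picked out from several position shares after their values were seen, and neither difference was tested. When a region lay within a gene, that gene was the nearest by start in 519 cases and another gene in 197.

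The median distance to the nearest protein-coding start was 26954 bp (middle 50% from 12629 to 59368), against 27925 bp for the other distal regions. Within 10 kb lay 301 regions, from 10 to 50 kb 977, from 50 to 100 kb 313, from 100 to 500 kb 207, and beyond 500 kb 18. The share of distal K562 regions that were common ones was similar across these classes, from 27.1% between 50 and 100 kb to 19.8% (12.2 to 29.4) beyond 500 kb. The farthest 3 had AMY1B, MRPL39 and PLA2G4A as nearest genes, at 1352785, 1334753 and 1329462 bp. The AMY1B region (chr1:105102447-105102804) ranked 2197, 2793 and 807 in K562, WT and 195C>G. The MRPL39 region (chr21:24272466-24273006) ranked 3182 in K562 but 91 in WT (signal 193.8) and 20 in 195C>G (signal 272.0). The PLA2G4A region (chr1:188158273-188158450) ranked 15302, 5675 and 7747.

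At the 5 kb limit, the regions just inside were those nearest to APOBEC2 (5043 bp; ranks 9371, 29972 and 9712), ZNF48 (5045 bp; 5233, 26260 and 12208) and SLC35F6 (5071 bp; 2349, 2373 and 1798). Just outside were those of GSS (4981 bp; 11504, 17659 and 10696), PRX (4972 bp; 16651, 5013 and 15467) and SPAG6 (4953 bp; 2250, 4805 and 6187). The ranks on the 2 sides of the limit overlapped. The limit counts protein-coding starts only, and 185 of the common regions (10.2%) had the start of some annotated transcript, noncoding included, within 5 kb.

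Chromosome 1 held 246 of the regions, chromosome 6 165, chromosome 2 146, chromosome 17 139 and chromosome 19 135. As a share of each chromosome's distal K562 regions they ranged from 17.7% (10.7 to 26.8) on chromosome 21 to 34.3% (23.3 to 46.6) on chromosome 18, around the 25.9% of all. Among the larger counts, chromosome 17 stood at 32.2% (27.8 to 36.8) and chromosome 5 at 19.4% (15.1 to 24.2). Although K562 regions overlapped by BCL11A were left out by the rule, the nearest BCL11A midpoint was within 1 kb of 93 regions (5.12%). It was within 10 kb of 477 (26.3%) and within 100 kb of 1446 (79.6%). When regions with any BCL11A region within 1 kb were left out as well, 1683 common regions remained. Over all distal K562 regions the shares within 10 kb and 100 kb were 36.6% and 79.2%. In those overlapped in WT alone they were 34.3% and 81.0%, and in the 3052 in neither HUDEP-2 list 26.1% and 72.7%. Each of these groups still includes regions overlapped by BCL11A, so none is a like comparison with the common regions.

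Genes for transfer RNA stood under some of the regions (a pattern chosen after its values were seen). A tRNA gene lay within 200 bp of 32 of the 1816 (1.76%, interval 1.21 to 2.48), of 49 of the other 5197 distal regions (0.943%, 0.698 to 1.24), and of 14 of the 854 shared with BCL11A (1.64%). Chromosome 6, which carries the large tRNA gene cluster beside the histone genes, held 12 of the 32. First by combined rank was the region nearest to ABT1, at the alanine tRNA gene TRA-AGC11-1, with ranks of 145, 193 and 138 and signals of 162.8 in WT and 178.1 in 195C>G. At the lysine tRNA gene TRK-CTT3-1 (chr16:3156963-3157549) the ranks were 1327, 1612 and 978. Spliceosomal and related snRNA genes lay at 10 regions (0.551%, 0.264 to 1.01) against 16 of the others (0.308%, 0.176 to 0.499). The share was higher, 7 of 854 (0.820%), in the regions shared with BCL11A. Those at common regions included RNU5F-1, RNU1-1 and RNU11. RNU1-1 was counted at overlapping common regions, as was the tRNA gene TRG-CCC1-1. tRNA and snRNA genes have near-identical copies, and the sources used here do not say how reads that align to several places were treated.

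The 1816 regions joined into 1708 separate sites, since 216 of them overlapped another one. Counting sites that do not overlap, 398 regions (21.9%, upper bound 23.9) lay within 20 kb of another, in 173 clusters of 2 or more sites, 25 of them with 3 or more and 7 with 4 or more. Distal K562 regions lie near each other whatever their class: 45.5% of the common regions and 43.8% of the others had another distal K562 site within 20 kb.

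Of the clusters, 3 held 5 regions, and of those with 4 regions the first 2 by number of sites and then by best K562 rank are described. The cluster with the most sites lay upstream of GSE1, a gene of a histone deacetylase corepressor complex, in 19055 bp (chr16:85555139-85574193) between 37353 and 55884 bp from its start. Its 5 regions ranked from 1046 to 6043 in K562, from 1851 to 6193 in WT and from 692 to 12427 in 195C>G. The strongest of them in WT (chr16:85569704-85570125) had signals of 83.4 in WT and 118.1 in 195C>G. A BCL11A midpoint lay 628 to 2139 bp from each of the 5. With regions farther upstream, GSE1 was the nearest gene of 11 common regions at 10 sites, the most of any gene. At BLVRA, the biliverdin reductase that completes heme breakdown to bilirubin, 5 regions at 3 sites flanked the start (chr7:43750493-43769192), from 7981 bp upstream to 10275 bp downstream, and their WT ranks ran from 3763 to 9688. Its intronic regions come in overlapping pairs that share 1 WT region each, so they carry 1 WT value per pair.

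Near PCBP1, an RNA-binding protein that also delivers iron to ferritin, 4 regions at 4 sites lay 16279 to 37919 bp downstream (chr2:70103581-70125534). Their K562 ranks ran from 357 to 11918 and their WT ranks from 2926 to 34926, with WT signals from 15.5 to 69.2. The cluster upstream of NANOS3 (chr19:13841981-13862344) held 5 regions at 3 sites, with WT ranks from 1390 to 19479. BCL11A midpoints lay 257 to 574 bp from these regions. Inside HCN2, a channel gene, 4 regions at 4 sites lay in introns 1, 3 and 5 (chr19:597743-611119), with K562 ranks from 278 to 4612 and WT ranks from 4272 to 9513.

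**Figure D3:**
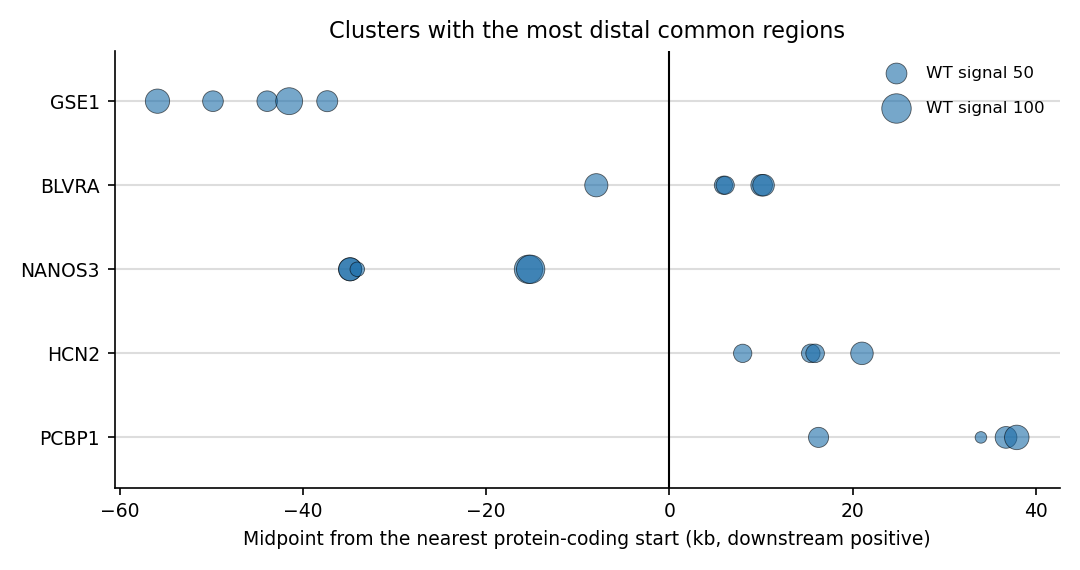
Position of the regions in 5 clusters, the 3 with 5 regions and the first 2 of those with 4, as distance of the midpoint from the nearest protein-coding start (kb, negative upstream), with circle area in proportion to the WT signal. The GSE1 regions lie 37353 to 55884 bp upstream, those of BLVRA flank the start, and those of HCN2 and PCBP1 lie downstream.

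The regions had 1369 different nearest genes, 7.58% of the 18069 protein-coding genes off chromosome 11. Of these genes 1116 had 1 site, 198 had 2 and 55 had 3 or more. After GSE1 came C10orf105 with 7 regions at 6 sites (these genes were named after their values were seen). MYLIP had 6 regions at 6 sites, and so had ZNF184. For MYLIP they reached from 222985 bp upstream to 39973 bp downstream, with WT signals between 27.1 and 380.6. Genes with a wide gap around them collect more nearest regions, and no correction for that was made.

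Genes named on 11 lists of red cell and other functions, chosen with earlier results of these data known, were counted by whether a common region lay nearest to them. Of 310 listed genes off chromosome 11, 62 did, with 95 regions at 88 sites, where 7.58% of all genes did. The listed genes also had more distal K562 regions of any kind: 126 of them (40.6%) were nearest to one, beside 21.1% of all genes. Of the 290 distal K562 regions nearest to listed genes, 95 (32.8%) were common regions, beside 25.9% of all distal ones. Nothing is read from these shares beyond the counts.

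**Figure D4:**
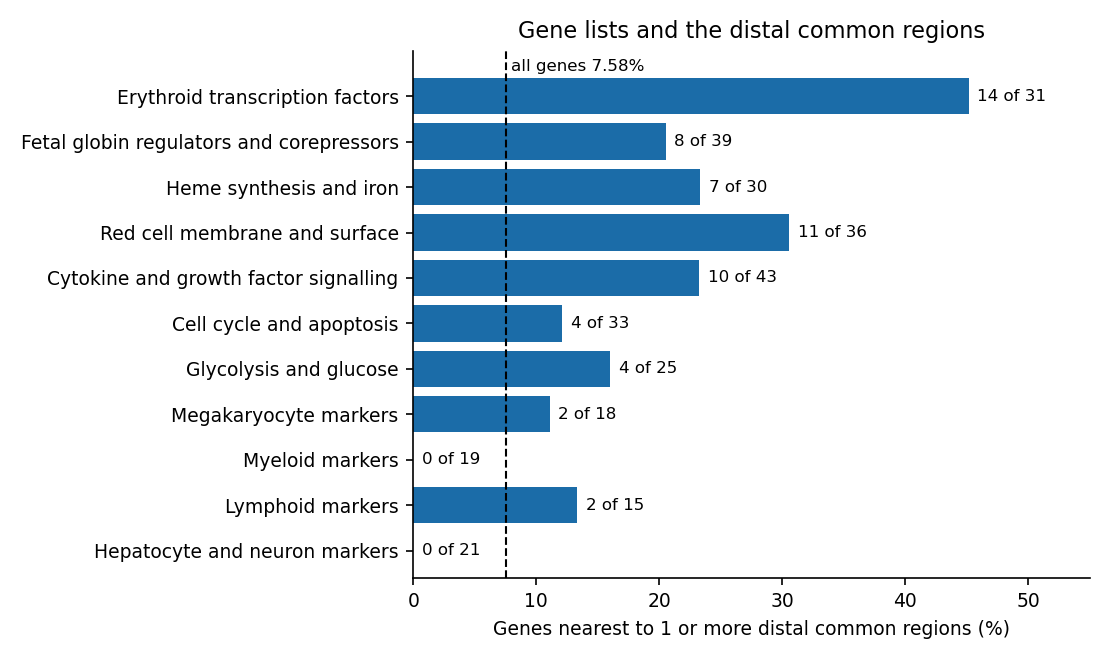
Share of each gene list (%, horizontal axis) that was the nearest gene of 1 or more common regions, with the count beside each bar and the 7.58% of all protein-coding genes as a dashed line. The list of erythroid transcription factors has 14 of 31 genes, the red cell membrane list 11 of 36, and the myeloid list and the hepatocyte and neuron list 0.

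Of 31 erythroid transcription factor genes, 14 were nearest to 21 regions: E2F2, GFI1B, IKZF1, KLF3, LYL1, MYB, MYC, NFE2, RUNX1, STAT5A, TCF12, TCF3, TRIB2 and ZFPM1. Those 21 were 28.0% of the 75 distal K562 regions nearest to these genes, close to the 25.9% of all, and their median WT rank percentile was 13.5. After the MYB region described above, the best was 439195 bp upstream of TRIB2, which encodes a pseudokinase (chr2:12277439-12277914), with ranks of 216, 851 and 834 and signals of 109.3 in WT and 112.3 in 195C>G. Further down the list (chosen after their values were seen), a region in intron 5 of GFI1B, an erythroid and megakaryocytic repressor (chr9:132984698-132985115), ranked 3772, 1114 and 2582. A BCL11A midpoint lay 484 bp from that region. For MYC, 3 regions lay 299487 to 414062 bp downstream of the start, the strongest in WT with a signal of 45.3.

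Among 39 fetal globin regulators and corepressor genes, 8 were nearest to 12 regions, 42.9% of 28 distal regions, among them GATAD2A, HDAC2, LIN28B, NFIA, NFIX, RCOR1 and ZBTB7A itself. The best lay 11965 bp upstream of NFIX, a nuclear factor I gene (chr19:12983638-12983972; ranks 2337, 1179 and 1982), and in intron 2 of its relative NFIA (chr1:61271392-61271746; ranks 1270, 6650 and 2749). Signals were 98.1 in WT and 82.7 in 195C>G for NFIX, and 47.1 and 72.7 for NFIA. ZBTB7A had 2 common regions near its own start (singled out after their values were seen). The one 22243 bp upstream (chr19:4089127-4089249) ranked 295 in WT (signal 146.0) and 194 in 195C>G (167.9) but 12134 in K562. A BCL11A midpoint lay 337 bp from it. The one in intron 1 (chr19:4058288-4058700) had K562, WT and 195C>G ranks of 2669, 2478 and 15662.

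Heme and iron genes had 7 of 30 on the list, nearest to 18 regions: BLVRA, FECH, PCBP1, TFR2, TFRC, UROD and UROS. In all, 30 distal K562 regions were nearest to such genes, so these 18 were most of them, beside 25.9% of all distal ones. The 18 stood at only 15 separate sites, while the 30 were counted as regions only. BLVRA and PCBP1 alone had 12 of the 18, at 4 and 5 sites, since some overlap and share their HUDEP-2 values. The best lay in intron 1 of UROS, the uroporphyrinogen III synthase of heme synthesis (chr10:125816497-125816872), with ranks of 1370, 1843 and 1589 and signals of 83.5 in WT and 90.2 in 195C>G. Next by combined rank came a region downstream of PCBP1 (chr2:70123944-70124454), with ranks of 357, 4946 and 1171. Near UROD, another enzyme of heme synthesis, a region in intron 7 of its neighbour ZSWIM5 (chr1:45038938-45039233; named after its values were seen) ranked 344 in 195C>G and 1630 in WT, against 6218 in K562.

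On the red cell membrane list 11 of 36 genes were nearest to 15 regions (37.5% of 40), among them ADD2, AQP1, CD47, EPB41, GYPB, GYPE, RHAG, RHD, SLC2A1 and SPTB. Behind the RHAG region described above came one 59533 bp upstream of the glycophorin gene GYPB (chr4:144078680-144079076), with ranks of 1524, 5045 and 5500 and signals of 53.9 in WT and 53.2 in 195C>G. The glycophorin and RH genes have near-identical copies, so the counts at GYPB, GYPE and RHD are uncertain.

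For cytokine and growth factor signalling, 10 of 43 genes were nearest to 15 regions (29.4% of 51): IL6R, INSR, JAK2, KIT, SMAD6, SMAD7, SOCS1, SPRED2, TGFBR1 and TNFRSF1A. SMAD6, SMAD7, SOCS1 and SPRED2 encode inhibitors of their pathways. The region 22512 bp upstream of SMAD6 (chr15:66679559-66680089) ranked 1214, 807 and 792, with signals of 111.1 in WT and 113.9 in 195C>G. The best near SOCS1 (chr16:11233142-11233494), 22864 bp downstream, ranked 4186, 2142 and 1202, with signals of 78.7 and 99.6. It overlaps a second common region, so they share these HUDEP-2 values.

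Cell cycle and apoptosis genes had 4 of 33 nearest to 4 regions (17.4% of 23), namely BBC3, BCL2L11, CCND3 and MDM4. The best were 11649 bp upstream of BBC3, which encodes the pro-apoptotic protein PUMA (chr19:47244213-47244617; ranks 3311, 1985 and 4876), and 245269 bp downstream of BCL2L11, which encodes BIM (chr2:111365986-111366379; ranks 4817, 5631 and 3409). Glycolysis genes had 4 of 25 (BPGM, ENO1, HK1 and PFKFB3) nearest to 5 regions, 41.7% of 12. Both of the best lay in introns of HK1, the hexokinase of red cells, at chr10:69308280-69308719 (ranks 1307, 5391 and 3153) and chr10:69334301-69334712 (ranks 2483, 5790 and 13567).

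Lists of genes that mark other cell types were shorter and had smaller counts, but not always smaller shares. Of 18 megakaryocyte genes 2 (11.1%) were nearest to a common region, among them the integrin gene ITGB3. Their 3 common regions were 42.9% of the 7 distal K562 regions nearest to that list. Of 15 lymphoid genes 2 (13.3%) were, CD2 and TCF7, with 22.2% of 9 distal regions. The gene share was 12.1% on the cell cycle and apoptosis list and 7.58% over all genes. The TCF7 region (chr5:134140674-134141053), in a coding exon, ranked 636, 1200 and 356, with signals of 97.4 in WT and 142.4 in 195C>G. None of the 19 myeloid genes or of the 21 hepatocyte and neuron genes had a common region, while 11 and 4 distal K562 regions lay nearest to these lists. With so few genes, these counts of 0 were not tested against the 7.58% of all genes.

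The promoters of the nearest genes were read from other regions of the same lists, within 1 kb of a protein-coding start. A K562 ZBTB7A promoter region was listed at 637 of the 1369 nearest genes (46.5%, interval 43.9 to 49.2), at 41.0% (39.0 to 42.9) of the 2442 genes nearest only to other distal K562 regions, and at 33.3% of all genes. In WT the share was 59.2% (56.6 to 61.9) against 46.5% (44.5 to 48.5), with 45.4% of all genes. In 195C>G it was 43.8% (41.2 to 46.5) against 31.0% (29.1 to 32.8), with 29.5% of all. BCL11A promoter regions stood at 33.6% (31.1 to 36.2) against 27.7% (25.9 to 29.5), with 24.6% of all. None of these pairs of intervals overlaps, but genes are not replicates and the differences were not tested. At 438 genes (32.0%, beside 20.2% of all genes) all 3 ZBTB7A lists held a promoter region, and at 444 (32.4%) none did.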

How the data were processed

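ZBTB7A or BCL11A ChIP-seq was carried out in 8 ChIP libraries with 8 controls, in 4 groups. The submitters' processing notes name Trimmomatic 0.3.2, Bowtie2 2.2.9, Bowtie, Picard and bedtools, without their roles, and hg38. The authors deposited 4 peak lists; in the BCL11A one each region has a score, while the WT and 195C>G ones, made with SPP, hold a signal and a summit offset. They also hold, as deposited by the authors, a −log10 false discovery rate. The K562 list holds coordinates alone, so its order was used as rank, a choice made after the data were seen, and whether that order follows strength is not known. The signal and score values were made by the authors, and no source used here gives their normalization. The K562 and BCL11A lists pool replicates by the irreproducible discovery rate.

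Chromosome 11 was left out, because the HUDEP-2 ZBTB7A lists use a modified one, and 853 repeated K562 rows were dropped. Starts came from the authors' deposited annotation (NM transcripts). Each region was given the midpoint distance to the nearest start, the best-ranked overlapping WT and 195C>G region, and its cluster (sites joined within 20 kb). Ranks were turned into percentiles of their own list. Shares carry exact Clopper-Pearson 95% intervals. The regions named in the text are the 12 with the lowest sum of rank percentiles, the best 2 for each gene list, the farthest 3, the 5 clusters with the most regions (ties by sites, then best K562 rank), and 3 on each side of the distance limit; all others are said to be chosen after their values were seen. Some items that this rule names are not reported here. The common regions and the gene lists were themselves chosen with earlier results of these data known. No genome sequence was used here, so sequences are RefSeq start windows (GRCh38.p14) and not summit-centred ones. Coordinates are 1-based. The selection was tested on simulated data. Work used Python 3.11, pandas 2.3.3, numpy 2.4.6, scipy 1.17.1 and matplotlib 3.10.9. Alternatives changed the overlap, list threshold, distance, transcripts, BCL11A exclusion, merging, chromosome 19, joining distance, gene assignment and region width.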

Additional observations from a re-analysis of the deposited data

How the results depend on the processing

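Of 51 recomputed values, 37 stayed within their error or within 1.5 times the count. With a reciprocal overlap of at least 50% the rule found 898 regions, with a median WT percentile of 15.8, 13.5% of them clustered, 49.6% of nearest genes with a K562 promoter region and 37 listed genes. K562 regions are a median of 330 bp wide and WT regions most often 644 bp, which limits reciprocal overlap by construction. With the first 50% of each ZBTB7A list, by signal in HUDEP-2 and by order in K562, where order may not be strength, the values were 743 regions, a WT percentile of 10.6, 12.7% clustered, 34.2% with a promoter region (20.8% of all genes, since the promoter regions were thinned too), and 36 listed genes. Fewer regions enter by construction in both settings. Beyond 10 kb from a start, 36.9% lay inside a transcript. Joining over the shorter distance tried put 16.2% in clusters, and joining within 50 kb 33.8%. Leaving out the 257 regions exactly 490 bp wide, an alternative chosen after seeing the data, gave a WT percentile of 19.6. No paired analysis was possible because the lists hold no value per replicate, and for the same reason no replicate could be left out. The depth of each library is unknown, so absence from a list is not evidence of absence of binding, and differences between list lengths (36435 WT and 18784 195C>G regions) set how many regions could be common.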
